A study of Homo sapiens with 4 samples.

Results

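The genes of the mTOR complexes and of their TSC brake were measured in LASCPC-01 cells, a neuroendocrine prostate cancer (NEPC) line driven by NMYC together with activated AKT1, under PBS and under fluoxetine, an antidepressant that inhibits serotonin reuptake. The 10 genes were chosen by name, MTOR, RPTOR, RICTOR, MLST8, DEPTOR, TSC1, TSC2, RHEB, RPS6KB1 and EIF4EBP1, and all 10 were among the 16376 genes listed. RNA-seq covered 2 samples under PBS and 2 under fluoxetine, and the labels place all 4 libraries at day 3 of a wild-type genotype and give no dose. The paper's text gives a dose and an exposure shorter than 3 days, and the labels do not say what day 3 is counted from. The fluoxetine titles hold the letters PP in place of a drug name. All 4 samples come from the same line, so nothing here bears on other NEPC cells, and the labels do not say whether replicates came from separate cultures.

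mTOR is a kinase that works in a pair of complexes. In mTORC1 it is held by RAPTOR (the RPTOR product) and drives protein synthesis by phosphorylating S6K1 (RPS6KB1) and 4E-BP1 (EIF4EBP1), whereas in mTORC2 it is held by RICTOR and phosphorylates AKT. MLST8 belongs to both complexes, DEPTOR inhibits both, and TSC1 with TSC2 turns off RHEB, the GTPase that switches mTORC1 on at the lysosome. AKT phosphorylates TSC2 and so releases RHEB. The control of this pathway is largely by phosphorylation, which RNA sequencing does not measure.

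The authors deposited FPKM, fragments of each gene corrected for gene length and library depth. The read numbers behind the FPKM were recovered for 94.1% of detected genes, and for all 10 genes here. Library depth, as the FPKM imply it, lay between 32873603 and 34831389 reads. Among the neuroendocrine markers, NCAM1 (44.3 to 52.0 FPKM over the 4 libraries), INSM1 and ENO2 had a mean of at least 1 FPKM, while SYP was at 0.629 FPKM or less and CHGA and NEUROD1 did not pass 0.1 FPKM in any library. MYCN was at 323.1 to 386.5 FPKM and AKT1 at 68.8 to 74.4 FPKM, and reads of the introduced and the native copies of these genes were not told apart here. The 3 immune markers summed to 0.128 FPKM or less in each library, and the 3 endothelial markers to 0.218 FPKM or less. The 3 fibroblast markers summed to between 2.75 and 2.94 FPKM with PBS and between 1.90 and 2.79 FPKM with fluoxetine, most of it COL1A1. The 4 epithelial markers summed to between 1089.5 and 1139.9 FPKM with PBS and between 1158 and 1236 FPKM with fluoxetine. No marker was called, and the part of these levels in the results was not tested. In bulk RNA, fewer cells and less RNA per cell cannot be told apart.

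All 10 genes were detected in every library, across a wide span of levels. EIF4EBP1, which encodes the repressor of cap-dependent translation that mTORC1 inactivates, was the highest at a mean of 244.4 FPKM over the 4 libraries, above 98.6% of the 12663 genes tested. MLST8 followed at 40.8 FPKM, then MTOR at 21.4, TSC2 at 19.97, RHEB at 14.8, RPTOR at 10.5, RPS6KB1 at 9.20, TSC1 at 4.72 and RICTOR at 4.38 FPKM. DEPTOR came last at 0.742 FPKM, above 13.9% of the genes tested. The ranges over the 4 libraries overlapped for 3 neighbours in this order, MTOR with TSC2, RPTOR with RPS6KB1 and TSC1 with RICTOR, and did not overlap for the others. EIF4EBP1 stood 5.996-fold above MLST8, and RICTOR 5.91-fold above DEPTOR.

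**Figure D1:**
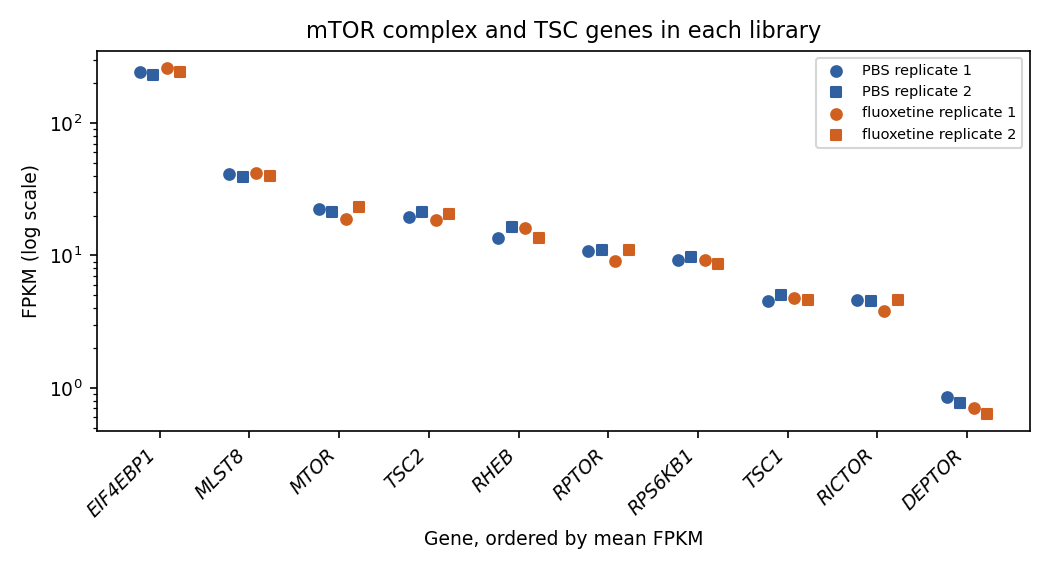
FPKM of the 10 genes (log axis) in each of the 4 libraries, with PBS in blue, fluoxetine in orange, replicate 1 as circles and replicate 2 as squares. The levels run from 0.637 FPKM for DEPTOR to 260.2 FPKM for EIF4EBP1, and within a gene the 4 points lie close together compared with the steps between most genes.

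To ask whether fluoxetine altered the transcripts of this machinery, both groups were compared with limma on log2(FPKM + 0.1), two-sided, over the 12663 genes averaging 0.1 FPKM or more (Benjamini-Hochberg adjustment). None of the 10 genes had an adjusted p under 0.05, and none had an unadjusted p under 0.05 either. Over all genes tested, 30 were called (0.237%), 27 lower (0.213%) and 3 higher (0.0237%) in fluoxetine, and 1078 (8.51%) had an unadjusted p under 0.05. The median log2 fold change of the 10 genes was -0.07, beside -0.02 over all genes tested. The log2 fold change was below 0 for 8 of the 10, beside 56.5% of all genes tested. For 2 of the 10, RPS6KB1 and DEPTOR, the PBS libraries both exceeded the fluoxetine libraries, a pattern of 24.8% of all genes tested. No gene of the 10 had both fluoxetine libraries above both PBS libraries, as 16.7% of all genes tested did. With 2 libraries against 2, the exact permutation test has a smallest p of 0.333 for 1 gene.

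The start regions of 3 of these genes are given below in the RefSeq sequence of GRCh38.p14, each a window of 300 bases around the start of transcription on the gene's own strand. They are shown because they stand for the kinase, for the scaffold that sets mTORC2 apart and for the brake on RHEB, whose RNA levels are compared next, and because the line was made with NMYC, whose protein family binds the E-box CACGTG. Both strands were searched for CACGTG and for ACGTG, a form of the hypoxia response element core that lies within CACGTG. Matches are in capitals, and the other form of that core, GCGTG, was not searched for. Of the 10 genes, 7 had a start region to search, 8 regions in all since TSC2 has 2. EIF4EBP1, MLST8 and DEPTOR were not searched.
MTOR, chr1:11262502-11262801, minus strand: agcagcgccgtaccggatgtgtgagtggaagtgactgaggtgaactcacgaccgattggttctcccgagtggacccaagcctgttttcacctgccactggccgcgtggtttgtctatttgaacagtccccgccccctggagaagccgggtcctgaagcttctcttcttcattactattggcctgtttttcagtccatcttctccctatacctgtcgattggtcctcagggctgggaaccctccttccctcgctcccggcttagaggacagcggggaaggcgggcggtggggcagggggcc
RICTOR, chr5:39074350-39074649, minus strand: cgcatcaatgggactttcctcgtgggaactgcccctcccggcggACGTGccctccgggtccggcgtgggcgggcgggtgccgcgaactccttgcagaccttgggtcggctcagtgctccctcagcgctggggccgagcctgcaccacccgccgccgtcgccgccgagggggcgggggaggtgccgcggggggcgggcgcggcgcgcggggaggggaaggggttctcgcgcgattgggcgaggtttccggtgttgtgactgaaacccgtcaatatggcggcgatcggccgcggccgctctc
TSC2, chr16:2047735-2048034, plus strand: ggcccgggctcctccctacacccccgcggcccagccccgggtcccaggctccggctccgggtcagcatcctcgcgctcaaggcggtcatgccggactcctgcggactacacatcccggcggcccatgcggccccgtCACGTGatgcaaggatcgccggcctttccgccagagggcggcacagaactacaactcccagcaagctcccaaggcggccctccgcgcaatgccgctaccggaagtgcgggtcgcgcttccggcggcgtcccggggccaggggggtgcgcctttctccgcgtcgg
CACGTG was found in 1 of the 8 regions, the TSC2 region above, and in 7.26% of 35116 such regions in the table. ACGTG was found in 3 regions, those of TSC2, RICTOR and RHEB, and in 21.4% of all. The MTOR region held neither CACGTG nor ACGTG, the only motifs searched. A match of letters is not a bound site, and binding was not measured in this study.

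MTOR, which encodes the kinase itself, spans 11106535 to 11262507 of chromosome 1 (GRCh38, GENCODE 29, as for the positions that follow). PBS gave 22.4 and 21.4 FPKM, and fluoxetine gave 18.9 and 23.1 FPKM, from 6007 to 7365 reads per library. The fluoxetine libraries held both the lowest and the highest value, so the groups overlapped. MTOR had a log2 difference, fluoxetine minus PBS, of -0.07 (standard error, SE, 0.10, limma adjusted p = 0.847), and the 95% interval corresponds to a change between -17.5% and 10.4%.

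RPTOR, the mTORC1 scaffold that recruits S6K1 and 4E-BP1, lies on chromosome 17 from 80544819 to 80966371. It had 10.88 and 11.03 FPKM with PBS and 9.12 and 10.9 FPKM with fluoxetine. Only fluoxetine replicate 1 stood apart, below the other 3 libraries. RPTOR had a log2 difference of -0.13 (SE 0.10, limma adjusted p = 0.686), with a 95% interval from -21.6% to 5.94%, and it was -0.01 without fluoxetine replicate 1. RICTOR, the scaffold of mTORC2, lies on chromosome 5 from 38937919 to 39074408 and had 4.59 and 4.50 FPKM with PBS and 3.82 and 4.61 FPKM with fluoxetine. Again fluoxetine replicate 1 was the lowest and fluoxetine replicate 2 the highest. RICTOR had a log2 difference of -0.11 (SE 0.12, limma adjusted p = 0.787), with a 95% interval from -22.9% to 11.03%, and it turned to 0.02 without fluoxetine replicate 1.

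Because RAPTOR and RICTOR hold mTOR in different complexes, the ratio of their transcripts was taken within each library, where depth cancels. RPTOR over RICTOR was 2.37 and 2.45 with PBS and 2.39 and 2.37 with fluoxetine. The values of the groups overlapped, and the difference in the mean log2 ratio (log2 of FPKM + 0.1) was -0.02 (two-sided exact permutation p = 0.667, adjusted p = 1 over the 6 ratios compared). MLST8, the subunit common to both complexes, lies on chromosome 16 from 2204248 to 2209416. It had 41.5 and 39.4 FPKM with PBS and 42.1 and 40.1 FPKM with fluoxetine, so the groups overlapped. MLST8 had a log2 difference of 0.02 (SE 0.07, limma adjusted p = 0.944), with a 95% interval from -8.92% to 13.6%, the narrowest of the 10 genes on the log2 scale. MLST8 over MTOR was 1.85 and 1.84 with PBS and 2.23 and 1.74 with fluoxetine, where the fluoxetine libraries lay on either side of PBS (two-sided exact permutation p = 1).

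DEPTOR, the inhibitor of both complexes, lies on chromosome 8 and had 0.853 and 0.773 FPKM with PBS and 0.705 and 0.637 FPKM with fluoxetine. PBS thus held the 2 highest values. Few reads stand behind them, 72 and 69 for PBS against 63 and 57 for fluoxetine. The exact Poisson 95% interval of the lowest library, 0.482 to 0.825 FPKM, which covers counting error only, reached over the PBS library of 0.773 FPKM. DEPTOR had a log2 difference of -0.24 (SE 0.21, limma adjusted p = 0.736), the furthest from 0 of the 10, with a 95% interval from -38.9% to 16.8%. DEPTOR over MTOR was 0.0381 and 0.0361 with PBS and 0.0374 and 0.0276 with fluoxetine (two-sided exact permutation p = 1).

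**Figure D2:**
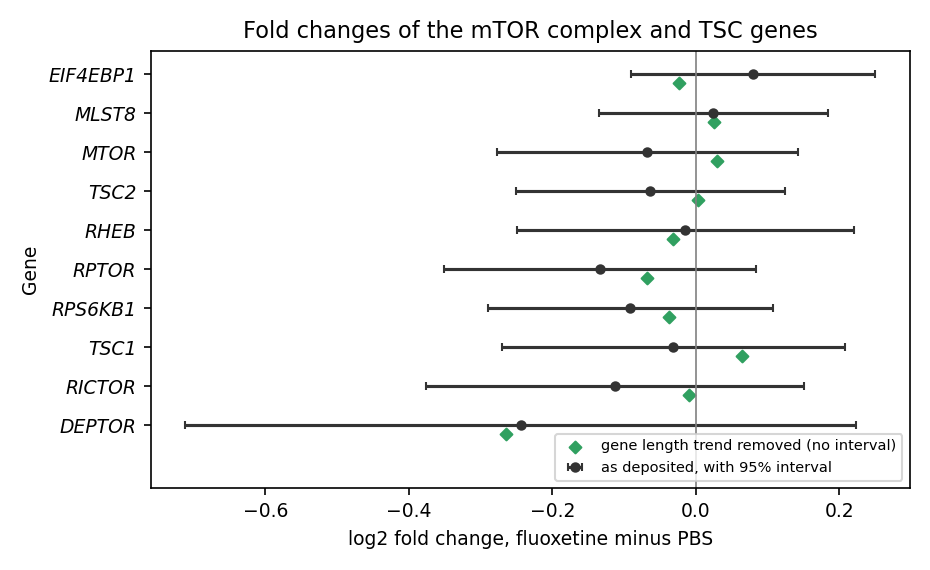
Log2 fold change (x axis, fluoxetine minus PBS on log2(FPKM + 0.1)) of the 10 genes, ordered by level; black points are the values from limma with bars for the 95% interval, and green diamonds are the same values with the trend on gene length taken out. All 10 intervals include 0, and the widest is that of DEPTOR, from -0.71 to 0.22.

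TSC1 and TSC2 encode the complex that turns RHEB off, with the GTPase-activating domain in TSC2. TSC2 lies on chromosome 16 from 2047465 to 2089487 and had 19.5 and 21.3 FPKM with PBS and 18.5 and 20.6 FPKM with fluoxetine. TSC2 had a log2 difference of -0.06 (SE 0.09, limma adjusted p = 0.838), with a 95% interval from -15.9% to 8.96%. TSC1, on chromosome 9 from 132891348 to 132946874, had 4.54 and 5.01 FPKM with PBS and 4.74 and 4.59 FPKM with fluoxetine. Both fluoxetine values of TSC1 lay between the PBS values. TSC1 had a log2 difference of -0.03 (SE 0.11, limma adjusted p = 0.955), with a 95% interval from -17.1% to 15.4%. TSC1 was the less abundant transcript per length in every library, with a ratio to TSC2 of 0.233 and 0.235 with PBS and 0.256 and 0.223 with fluoxetine (two-sided exact permutation p = 1).

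RHEB, the GTPase that the TSC complex restrains, lies on chromosome 7 from 151466012 to 151520120. It had 13.5 and 16.3 FPKM with PBS and 15.99 and 13.5 FPKM with fluoxetine. Each group held a low and a high library, and the spread within a group was larger than the difference of the means, which were 14.9 ± 1.94 FPKM (SD, n = 2) for PBS and 14.7 ± 1.76 FPKM for fluoxetine (SD, n = 2). RHEB had a log2 difference of -0.01 (SE 0.11, limma adjusted p = 0.982), with a 95% interval from -15.9% to 16.5%. RHEB over TSC2 was 0.695 and 0.764 with PBS and 0.865 and 0.656 with fluoxetine, with the fluoxetine libraries again on either side of PBS (two-sided exact permutation p = 1).

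RPS6KB1 and EIF4EBP1 encode the substrates through which mTORC1 acts on translation. RPS6KB1, which encodes S6K1, the kinase of ribosomal protein S6, lies on chromosome 17 from 59893046 to 59950564. It had 9.20 and 9.79 FPKM with PBS and 9.19 and 8.62 FPKM with fluoxetine, so the groups were apart only between 9.20 and 9.19 FPKM. RPS6KB1 had a log2 difference of -0.09 (SE 0.09, limma adjusted p = 0.771), with a 95% interval from -18.2% to 7.75%. EIF4EBP1, on chromosome 8, had 244.4 and 230.9 FPKM with PBS and 260.2 and 242.2 FPKM with fluoxetine, so the groups overlapped. EIF4EBP1 had a log2 difference of 0.08 (SE 0.08, limma adjusted p = 0.764), the highest of the 10, with a 95% interval from -6.08% to 18.9%. EIF4E, the cap-binding protein that 4E-BP1 sequesters, had 25.2 and 27.0 FPKM with PBS and 26.2 and 24.9 FPKM with fluoxetine. EIF4EBP1 over EIF4E was 9.71 and 8.54 with PBS and 9.93 and 9.73 with fluoxetine. Both fluoxetine ratios were above both PBS ratios, by a difference in mean log2 ratio of 0.11, and the exact permutation p of 0.333 is the smallest that this design allows (adjusted p = 1 over the 6 ratios). That difference was 0.02 without PBS replicate 2, 0.20 without PBS replicate 1 and 0.01 with the length trend removed.

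For MTOR, RPTOR, RICTOR and RHEB the fluoxetine libraries differed from each other by 0.24 to 0.29 on the log2 scale, more than the group means did. Across the 10 genes the ratio of these libraries fell with gene length, though not for each gene. RHEB, at an implied 2670 bases, had 0.24 for replicate 1 over replicate 2, beside a median of 0.03 over tested genes of about that length. Between its PBS libraries the same log2 ratio was -0.26. The length that the FPKM and the reads imply was 9155 bases for MTOR, 9700 for RICTOR, 8993 for TSC1, 6838 for RPTOR and 6809 for TSC2, and it ran from 827 bases for EIF4EBP1 to 5929 for RPS6KB1 among the other 5. Of the 5 genes over 6000 bases, 4 were lower in fluoxetine replicate 1 than in replicate 2, with TSC1 as the exception, and their log2 ratio of replicate 1 over replicate 2 ran from -0.29 to 0.04. All 5 shorter genes were higher in replicate 1, by 0.07 to 0.24 on the log2 scale. Across the 10 genes, which share the same libraries, the log2 ratio and log2 length had a Pearson r of -0.67 and a Spearman rho of -0.89. Over the 12638 tested genes with a known length the same values were -0.22 and -0.36. Between the PBS libraries they were -0.23 and -0.32 for the 10 genes, and -0.09 and -0.15 over the 12638. For the log2 fold change, fluoxetine minus PBS, against log2 length they were -0.40 and -0.36 for the 10 genes, and -0.20 and -0.34 over the 12638.

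**Figure D3:**
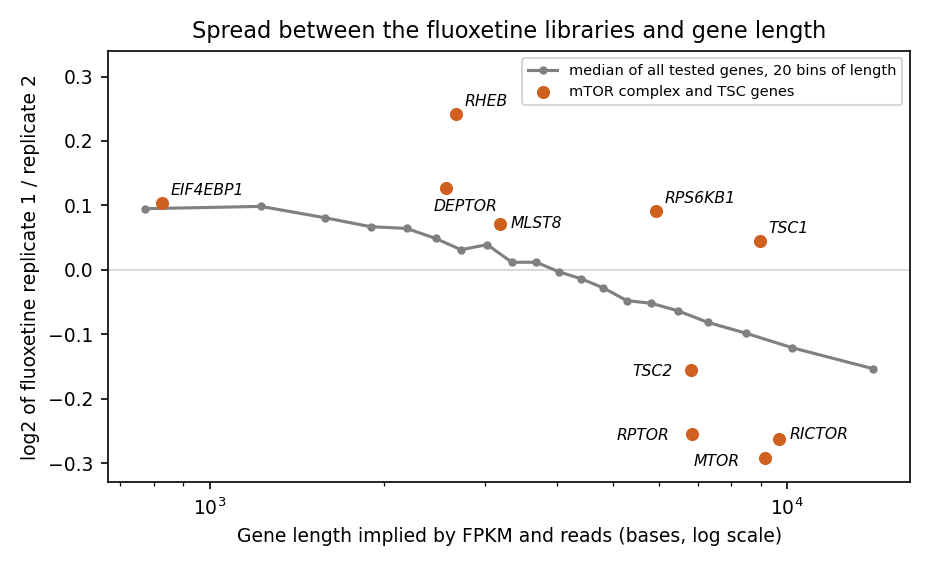
Log2 ratio of fluoxetine replicate 1 over fluoxetine replicate 2 (y axis) against the gene length implied by FPKM and reads (x axis, log scale, bases); orange points are the 10 genes and the grey line joins the medians of all tested genes in 20 bins of length. MTOR, RICTOR, RPTOR and TSC2 lie below 0 and the genes under 6000 bases above 0, while the grey line drops from 0.09 at the shortest genes to -0.15 at the longest.

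After removal of the length trend in each library, the log2 fold change was 0.03 for MTOR, -0.01 for RICTOR, -0.07 for RPTOR, 0.06 for TSC1, 0.0025 for TSC2 and -0.02 for EIF4EBP1. The sign turned for MTOR, TSC1, TSC2 and EIF4EBP1. DEPTOR was at -0.26, beside -0.24 with the trend kept. The part of length in the values as deposited was not tested further.

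The genes around these complexes were described from 7 lists holding 82 tested genes, of which 1 was called, beside 0.213% of all genes tested called as lower. That gene was BNIP3, a mitophagy receptor induced by hypoxia, in the list of energy and stress inputs. BNIP3 had 96.9 and 87.6 FPKM with PBS and 62.3 and 61.6 FPKM with fluoxetine, with both fluoxetine libraries well below both PBS libraries. It fell by 0.57 on the log2 scale (standard error 0.07, adjusted p = 0.00704 from limma). The adjusted p of BNIP3 was above 0.05 with any 1 of the 4 libraries left out, with a log2 fold change from -0.65 to -0.50, and it was 0.339 with no variance trend and 0.610 with low genes kept in.

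In that list, 12 genes were tested and their median log2 fold change was -0.17, beside -0.02 over all genes tested. In 8 of the 12, both fluoxetine libraries lay below both PBS libraries, and in 2 both lay above, beside 24.8% and 16.7% of all genes tested. With the length trend removed the median was -0.10. DDIT4, which encodes REDD1, a stress-induced inhibitor that acts on mTORC1 through TSC, had 135.9 and 107.3 FPKM with PBS and 95.8 and 100.2 FPKM with fluoxetine. DDIT4 had a log2 difference of -0.30 (SE 0.10, limma adjusted p = 0.464), and it was -0.13 without PBS replicate 1, the highest library. PRKAA1, a catalytic subunit of the energy sensor AMPK that phosphorylates TSC2 and RAPTOR, had 10.03 and 10.9 FPKM with PBS and 8.42 and 8.87 FPKM with fluoxetine (log2 fold change -0.27, adjusted p = 0.478 from limma).

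Amino acids reach mTORC1 through the Rag GTPases, which the Ragulator complex anchors at the lysosome. None of the 13 genes of the Rag, Ragulator and folliculin list was called, and their median log2 fold change was 0.05, which turned to -0.03 without fluoxetine replicate 2. LAMTOR2, a Ragulator subunit, had 73.7 and 58.5 FPKM with PBS and 82.2 and 74.6 FPKM with fluoxetine. The log2 difference was 0.25 (SE 0.10, limma adjusted p = 0.538). LAMTOR5 and LAMTOR1, of the same complex, had log2 fold changes of 0.19 and 0.09 (adjusted p = 0.579 and 0.720 from limma). Without PBS replicate 2 these values were 0.09 for LAMTOR2, 0.07 for LAMTOR5 and 0.01 for LAMTOR1, and without PBS replicate 1 they were 0.42, 0.32 and 0.18. With the length trend removed they were 0.13, 0.07 and 0.01. Of the other subunits of the complex, LAMTOR3 went the other way at -0.10 and LAMTOR4 was at 0.10 (adjusted p = 0.804 and 0.754 from limma). Over the 13 genes of the list, the log2 fold change was below 0 for 5 and above 0 for 8.

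None of the 18 genes for GATOR1, GATOR2, KICSTOR and the amino acid sensors was called, with a median of -0.03. SESN2, a leucine sensor that restrains mTORC1 through GATOR2, had 16.5 and 17.1 FPKM with PBS and 13.9 and 14.5 FPKM with fluoxetine, so the groups were apart. The log2 difference was -0.24 (SE 0.08, limma adjusted p = 0.462). Its paralog SESN3 had a log2 fold change of -0.27 (adjusted p = 0.579 from limma) and KICS2, a KICSTOR subunit, one of -0.20 (adjusted p = 0.615). With the length trend removed SESN2 was at -0.23, SESN3 at -0.16 and KICS2 at -0.15.

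The further subunits and assembly factors of the complexes had a median of 0.08 over the 6 genes tested, with none called. PRR5, an mTORC2 subunit, had 21.2 and 22.7 FPKM with PBS and 23.9 and 23.2 FPKM with fluoxetine, which is 0.10 on the log2 scale (limma adjusted p = 0.700). TELO2 and TTI2, of the complex that assembles mTOR with its partners, had log2 fold changes of 0.10 and 0.09 (adjusted p = 0.720 and 0.811 from limma). TBC1D7, the third subunit of the TSC complex, was at 0.0525 and 0.0579 FPKM with PBS and 0.190 and 0.0909 FPKM with fluoxetine (6, 7, 23 and 11 reads), and PRR5L was also under a mean of 0.1 FPKM, so neither was tested.

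Downstream of mTORC1, none of the 14 translation genes was called, and their median log2 fold change was -0.02. RPS6, the S6K1 substrate, had 1242 and 1251 FPKM with PBS and 1444 and 1302 FPKM with fluoxetine, which is 0.14 on the log2 scale (limma adjusted p = 0.678). RPS6 has many processed pseudogenes, and how reads shared with them were counted is not given in the sources used here. EIF4EBP2, the paralog of EIF4EBP1, had 31.3 and 33.3 FPKM with PBS and 27.0 and 30.3 FPKM with fluoxetine, which is -0.17 on the log2 scale (limma adjusted p = 0.579). With the length trend removed EIF4EBP2 was at -0.10. PDCD4, a translation inhibitor that S6K1 marks for degradation, had 13.7 and 14.3 FPKM with PBS and 11.8 and 11.1 FPKM with fluoxetine, which is -0.28 on the log2 scale (SE 0.08, limma adjusted p = 0.389). EIF4E had a log2 fold change of -0.03 (adjusted p = 0.933).

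None of the 11 genes for autophagy and lysosome outputs was called, with a median of -0.07. With a library left out that median ran from -0.08 to -0.02. ULK1, the kinase that starts autophagy when mTORC1 releases it, had 28.9 and 29.5 FPKM with PBS and 23.2 and 24.2 FPKM with fluoxetine. The groups were apart, and ULK1 had a log2 difference of -0.30 (SE 0.07, limma adjusted p = 0.249). LPIN1, a phosphatidate phosphatase and mTORC1 substrate, and RB1CC1, a partner of ULK1, had log2 fold changes of -0.21 and -0.14 (adjusted p = 0.536 and 0.712 from limma). Other partners of ULK1 went the other way, ATG13 at 0.07 and ATG101 at 0.04 (adjusted p = 0.818 and 0.897 from limma). Over the 11 genes of the list, the log2 fold change was below 0 for 8 and above 0 for 3. With the length trend removed LPIN1 was at -0.15, RB1CC1 at -0.02, ULK1 at -0.26, ATG13 at 0.12 and ATG101 at -0.03.

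Of the AGC kinases and AKT inputs, 8 genes were tested, none was called, and the median was 0.001. AKT1, which mTORC2 phosphorylates, had 70.4 and 68.8 FPKM with PBS and 72.1 and 74.4 FPKM with fluoxetine, which is 0.07 on the log2 scale (limma adjusted p = 0.754). PRKCA, another mTORC2 substrate, had a log2 fold change of -0.11 (adjusted p = 0.739 from limma).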

How the data were processed

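RNA of LASCPC-01 cells was measured in 2 PBS and 2 fluoxetine libraries, grouped by their treatment labels. The authors deposited FPKM, 1 value per library for each gene. The submitters' processing notes name fastp, HISAT2, HTSeq and GRCh38, without roles or versions, and the annotation is not given in the sources used here.

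Read numbers were solved from the FPKM as the smallest whole numbers (within 0.002) whose ratios between libraries fitted, multiplied where needed to give a length of whole bases at the depth that 81 genes shared when GENCODE 29 exon lengths were used. True reads can be multiples of these. Replicates were not copies of one another (chi-square over degrees of freedom 9.05 between PBS reads and 11.2 between fluoxetine reads), and each library counted as 1 sample.

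Groups were compared with limma 3.58.1 under R 4.3.3 (trended eBayes, log2(FPKM + 0.1)) in genes averaging 0.1 FPKM or more, all of which entered the Benjamini-Hochberg adjustment. A fold change on this scale understates that of low genes. The scripts were tested on simulated data. Tables came from Python 3.11.15 with pandas 2.3.3, numpy 2.4.6 and scipy 1.17.1, figures from matplotlib 3.10.9. Ratios between genes were compared with two-sided exact permutation tests over libraries. The genes named were the 10 members and genes from each of 7 pathway lists. From a list came every called gene and the 3 genes with the smallest unadjusted p among those averaging 1 FPKM or more. AKT1, EIF4E and DDIT4 were added. TBC1D7, PRR5L, LAMTOR3, LAMTOR4, ATG13 and ATG101 were named after their values were seen. Cell type markers and MYCN were named for their levels. Some genes under these rules are not reported here. The members and lists were chosen with earlier results of these data known. Where nothing says that replicates were separate cultures, the p-values measure only the spread between these samples, which may be technical. The alternatives were other pseudocounts and filters, other scalings, removal of the length trend (lowess, span 0.3), other variance settings, the replicate block and each library left out. limma voom on recovered reads (at least 10 reads over the 4 libraries) was chosen after seeing the data. Replicate numbers come from the titles.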

Additional observations from a re-analysis of the deposited data

How the results depend on the processing

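Under 16 alternatives, the 10 genes gave 159 log2 fold changes, of which 0 had an adjusted p under 0.05 (smallest 0.380) and the furthest from 0 was -0.31. A minimum mean FPKM of 1 left DEPTOR out. The sign held in 141 and turned in 18. The filters, the variance settings and the replicate block leave a log2 fold change unchanged, so its sign could not turn there. Without fluoxetine replicate 1, RICTOR turned from -0.11 to 0.0186 and MTOR from -0.07 to 0.078. With quantile normalization the log2 fold change was -0.0037 for MLST8, 0.0225 for TSC1 and -0.0081 for EIF4EBP1. With the gene length trend removed it was 0.0301 for MTOR, 0.0643 for TSC1, 0.0025 for TSC2, -0.0238 for EIF4EBP1 and 0.0121 for PRKCA, with TPM -0.0235 for MLST8, and with median centring 0.0117 for RHEB. With each library left out in turn, it ranged from -0.21 to 0.078 for MTOR, -0.24 to 0.0186 for RICTOR, -0.0127 to 0.0612 for MLST8, -0.10 to 0.0371 for TSC1, -0.14 to 0.0142 for TSC2, -0.15 to 0.12 for RHEB, -0.016 to 0.20 for TTI2, -0.0808 to 0.0215 for EIF4E and -0.23 to 0.0054 for PRKCA, the signs of the 10 genes turning most often without fluoxetine replicate 1 or PBS replicate 2. A lone library left in a group is assumed to vary like the other group. The median over the 10 genes was -0.11 with TPM, beside -0.0688 over all genes tested. With the length trend removed it was -0.0165, beside -0.0018 over all genes tested. With a library left out the median of the 10 genes was -0.11 to -0.0089.

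The count of genes called, 30, was 16 with quantile normalization, 53 with voom on recovered reads (chosen after seeing the data), 0 without the filter on low values (1175 at an unadjusted p under 0.05) and 0 without the variance trend (933 at an unadjusted p under 0.05). It was 2 to 12 with a library left out. The replicate number as a block gave 64 calls, none of them among the 10 genes. Same-numbered libraries share only a number, and their deviations correlated at 0.035 (0.101 among genes averaging 10 FPKM or more).

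With the length trend removed the difference in log2 ratio was -0.034 for RHEB over TSC2 and -0.0043 for MLST8 over MTOR. With a library left out it ranged from -0.046 to 0.0027 for RPTOR over RICTOR, -0.0681 to 0.13 for TSC1 over TSC2, -0.39 to 0.0331 for DEPTOR over MTOR, -0.15 to 0.25 for RHEB over TSC2, -0.0892 to 0.27 for MLST8 over MTOR and 0.0171 to 0.20 for EIF4EBP1 over EIF4E. The medians of 4 lists crossed 0 with a library left out, from -0.0322 to 0.0578 for Rag, Ragulator and folliculin, -0.0726 to 0.0073 for GATOR, KICSTOR and sensors, -0.048 to 0.0237 for translation and -0.0587 to 0.0235 for AGC kinases and AKT inputs. The causes were not tested.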
